A study of Mus musculus with 8 samples.

Results

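The genes described here are 10 members of the Toll-like receptor pathway. They are the receptors *Tlr1*, *Tlr2*, *Tlr4*, *Tlr5*, *Tlr6*, *Tlr7*, *Tlr8* and *Tlr9* and the adaptors *Myd88* and *Ticam1*. They were chosen by name, and every probe that carries one of these names on the array was kept, which gave 19 probes of 56605. The array names 37074 genes in all. Between mice injected with sonicated *Porphyromonas gingivalis* and mice injected with saline, 0 of the 12 probes tested were called different, where 1.61% of all tested probes were. The smallest p was that of a *Tlr7* probe, whose difference was -0.32 on the log2 scale with an adjusted p of 0.216 in limma. For *Myd88*, *Ticam1*, *Tlr9* and 2 of 3 probes named *Tlr4* the interval of the fold change lay inside 1.5-fold in both directions. These 2 *Tlr4* probes lie 87417 bases apart, and what transcript the remote one reads was not tested. For the third *Tlr4* probe the interval was 0.50 to 1.18. *Tlr1* was measured on 1 array of 8.

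Toll-like receptors are pattern recognition receptors that bind molecules of microbes, and each ends inside the cell in a TIR domain. Receptors at the cell surface bind bacterial lipoproteins (Tlr2, paired with Tlr1 or Tlr6), lipopolysaccharide (Tlr4) or flagellin (Tlr5), while those in endosomes bind nucleic acids (Tlr7, Tlr8 and Tlr9). The TIR domain recruits Myd88 or Ticam1, also called TRIF, and kinases and ubiquitin ligases then carry the signal to NF-κB and interferon regulatory factors. In adipose tissue these receptors are found on resident macrophages and other immune cells and on adipocytes. *P. gingivalis* is a periodontal bacterium whose lipopolysaccharide and lipoproteins act through Tlr2 and Tlr4.

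Gene expression was measured in 8 male C57BL/6J mice, 12 weeks old, for which no allele or transgene is named. Co mice (n = 4) received 100 μL of saline in a vein, and Pg mice (n = 4) received the same volume of saline with sonicated *P. gingivalis*. The dose is printed as 108 colony-forming units in the labels, a power of 10 that has lost its superscript when set beside the methods. Brown adipose tissue (BAT), by its label, was taken 18 h after the injection, and RNA of each mouse was put on 1 Agilent one-color array (Co1 to Co4 and Pg1 to Pg4). A bacterial sonicate given once in a vein holds many bacterial components, so that no single receptor ligand was isolated in this design. Levels are log2 values of the quantile-normalized array signal, and a difference is the mean of Pg minus the mean of Co on that scale. A probe was tested with limma when it stood well above background on at least 4 arrays, and it was called when its adjusted p was under 0.1 and its fold change above 1.5.

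Between 61.4% and 63.3% of all probes stood well above background on the Co arrays, and between 55.0% and 60.2% on the Pg arrays. Every Pg array had fewer such probes than every Co array (p = 0.0286, two-sided exact permutation test, which with 4 against 4 arrays can give no smaller value, adjusted p = 0.114 over 12 values per array). Negative controls were spread by 11.6 to 18.7 intensity units on the Pg arrays and by at most 9.75 on the Co arrays. All arrays lay on 1 slide, with Co in row 1 and Pg in row 2, so that row and group cannot be told apart. As to the label of the tissue, 7 of 9 brown adipocyte markers, *Cidea*, *Ppargc1a*, *Dio2*, *Prdm16*, *Cox8b*, *Cox7a1* and *Zic1*, stood above background on all arrays, while the probes of *Ucp1* and *Elovl3* did so on none. All 6 adipocyte markers and all 8 skeletal muscle markers, each by its brightest probe, were above background on all arrays. The mean level of the muscle markers was 17.4 to 17.9 in Co and 17.1 to 17.9 in Pg, and *Myh4*, a myosin of fast muscle fibers, ranged from 11.4 on Pg1 to 17.1 on Pg2. How much of the RNA came from muscle was not tested, so the levels below are those of the dissected sample. In such tissue RNA, fewer cells of a type and less RNA per cell cannot be told apart.

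The probes are 60 bases long and are placed by the array files on the mm9 build of the mouse genome. No annotation of that build was used here, so exon and UTR positions are not given. The longest run of letters that probes of different members share is 8 bases. The following probes, of *Tlr1*, *Tlr2* and *Tlr8*, are shown because the run TTTTGG (in capitals) occurs in all of them. They are printed 5′ to 3′.

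Tlr1 A_51_P495581, chr5:65316115-65316174, minus strand: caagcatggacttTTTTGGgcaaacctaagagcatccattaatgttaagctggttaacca
Tlr2 A_51_P452629, chr3:83640344-83640403, minus strand: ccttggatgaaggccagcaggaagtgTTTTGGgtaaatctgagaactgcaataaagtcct
Tlr8 A_51_P176893, chrX:163680715-163680774, minus strand: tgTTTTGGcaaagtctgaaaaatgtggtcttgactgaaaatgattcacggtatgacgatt

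TTTTGG occurs on the strand of the probe in 3 of the 19 member probes and on either strand in 4. Of all 56605 probes, 2.52% hold it on the strand of the probe and 4.89% on either strand. It lies within or overlaps longer runs that pairs of member probes share, such as TGTTTTGG in those of *Tlr2* and *Tlr8*, and the match is a description of letters only. Of these probes, that of *Tlr2* was measured on all 8 arrays, and those of *Tlr1* and *Tlr8* on none.

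The *Tlr4* sites are shown because their probes gave differences of both signs, none past the test. The probes at the upstream and downstream site carry the same accession, NM_021297, and lie 3321 bases apart. The probe at the remote site carries ENSMUST00000107365 and begins 87417 bases beyond the downstream one, whereas *Tlr4* spans 19031 bases in RefSeq. It is therefore named by its accession, and what transcript it reads was not tested. The upstream probe is printed whole, and the first 30 bases of the other probes.

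Tlr4 A_55_P2603039, upstream, chr4:66500344-66500403, plus strand: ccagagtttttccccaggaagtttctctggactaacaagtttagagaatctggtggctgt
Tlr4 A_51_P300806, downstream, chr4:66503724-66503782, plus strand: tgtgatagggctttaaatagttgagctaat
Tlr4 A_55_P2714823, remote, chr4:66591199-66591258, plus strand: tcttccatagtttgtgcttcatgtccctgc

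Detection came first, since a probe below background gives no level. Of the 19 probes, 8 stood well above background on all 8 arrays, 5 on none and 2 on a single array. Each Co array had 12 or 13 member probes above background, and each Pg array 8 to 12. The Pg arrays with the fewest were Pg3, with 8, and Pg1, with 9. These arrays also had the lowest share of all probes above background, 55.0% on Pg3 and 56.0% on Pg1, and the part of that share in the counts was not tested. No spot of a member was saturated. The 12 probes that passed the filter cover 9 of the 10 genes. Of the 12, 4 passed with all Co arrays and only some Pg arrays, so that the probes tested are not a neutral sample of the 19.

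**Figure D1:**
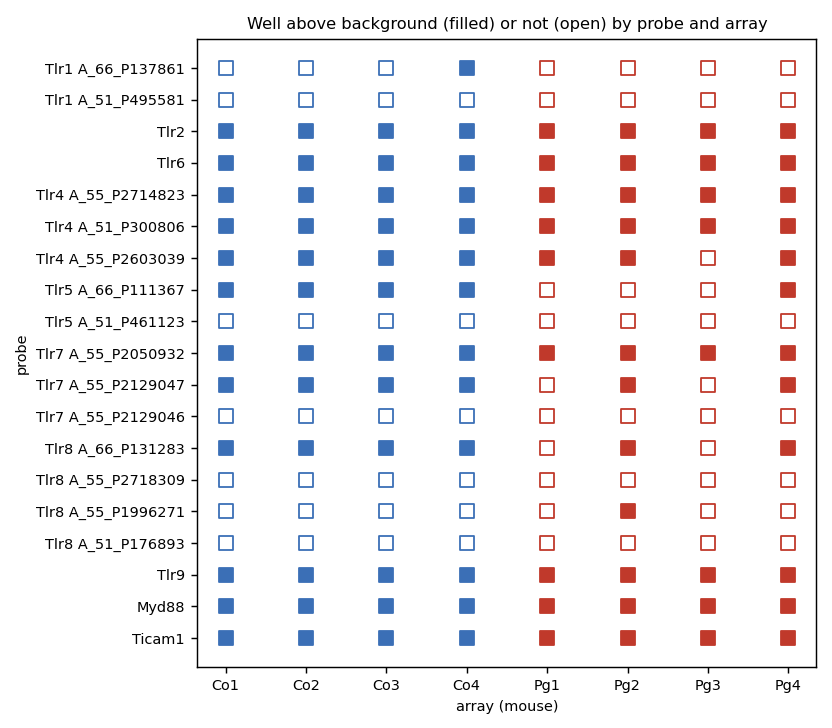
Detection of the 19 member probes (rows) on the 8 arrays (columns, Co in blue and Pg in red), with a filled square where the probe stood well above background. The 8 probes that are filled across the row are those of Tlr2, Tlr6, Tlr9, Myd88 and Ticam1, a pair of Tlr4 probes and 1 Tlr7 probe, and Pg3 has the fewest filled squares, 8.

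Among the 12 tested probes, 0 were called by limma, where 1.61% of the 33819 tested probes were called. Likewise 0 had an adjusted p under 0.1, where 7.82% of all tested probes did, and 1 had an unadjusted p under 0.05, where 22.8% did. The Co and Pg values overlapped for every one of the 12, while they did not overlap for 15.8% of all tested probes. The difference was positive for 7 and negative for 5, with a median of 0.07 against -0.04 over all tested probes. Among the 8 member probes above background on all 8 arrays it was positive for 6 and negative for 2. The 95% interval of the fold change lay inside 1.5-fold in both directions for 5 of the 12 probes, namely the downstream and remote *Tlr4* probes and those of *Tlr9*, *Myd88* and *Ticam1*. For the other 7 probes a change of 1.5-fold in at least 1 direction lies within the interval.

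**Figure D2:**
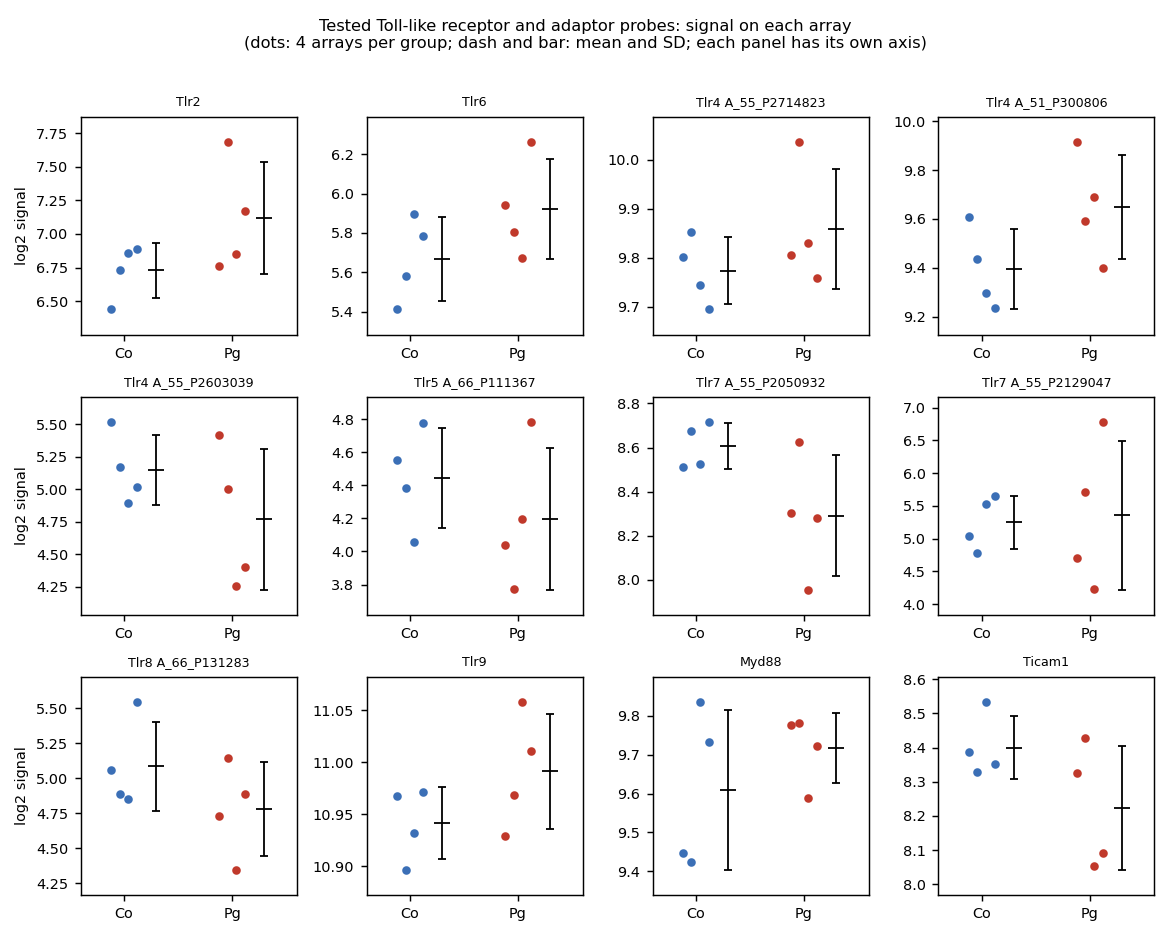
Log2 signal of the 12 tested probes on each array, Co in blue and Pg in red, with the mean and SD of 4 arrays beside the dots and a separate axis for each probe. In every panel the Co and Pg dots overlap, and in 11 of the 12 the bar is longer for Pg, the exception being Myd88.

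*Tlr2*, the receptor for bacterial lipoproteins, had the largest positive difference among the tested member probes. Its values were 6.44, 6.73, 6.86 and 6.89 in Co1 to Co4 and 6.76, 7.69, 6.85 and 7.17 in Pg1 to Pg4. Pg2 and Pg4 lay above all Co mice, whereas Pg1 and Pg3 lay among them. The difference was 0.39 ± 0.21 (SE, n = 4 arrays per group), with an adjusted p of 0.307 in limma and an interval of 0.938 to 1.83 for the fold change. It fell to 0.20 without Pg2, when that of *Tlr6* was 0.29, and reached 0.51 without Pg1. With either left out the *Tlr2* difference did not pass the test. It was 0.25 with normexp and 0.26 with the median signal as scanned. Pg2 and Pg4 also had the highest mean level of the macrophage markers, 10.5 and 10.3, while Co ranged from 9.51 to 10.1 and Pg1 and Pg3 were at 9.97 and 9.31. Of the 9 macrophage markers, 7 were higher and 2 lower in Pg, 0 with an adjusted p under 0.1 (6.23% of all genes by their brightest probe) and 0 with an unadjusted p under 0.05, and their part in the *Tlr2* values was not tested.

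Of the partners of Tlr2, *Tlr6* could be measured and *Tlr1* could not. *Tlr6* was at 5.41, 5.58, 5.89 and 5.79 in Co and at 5.94, 5.80, 5.67 and 6.26 in Pg. Pg1 and Pg4 lay above all Co mice and the groups overlapped. The difference was 0.25 ± 0.15 (SE, n = 4 per group, limma adjusted p = 0.359). It was 0.14 without Pg4, 0.17 without Co1 and with normexp, and 0.43 without normalization between arrays. *Tlr1*, which lies next to *Tlr6* on the chromosome, has a pair of probes. A_51_P495581 rose above background on no array, and A_66_P137861 stood well above it on Co4 alone, where it read 4.07 against 2.06 to 2.30 on the other Co arrays. The latter probe gives no bound on a fold change, as the mean of the Co arrays, 2.63, lies below the level that can be told from background on the Pg arrays, 4.48.

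The name of *Tlr4*, the receptor for lipopolysaccharide, is carried by 3 probes, whose differences did not all have the same sign. The downstream probe was at 9.61, 9.44, 9.30 and 9.24 in Co and at 9.91, 9.59, 9.69 and 9.40 in Pg. Pg1 and Pg3 lay above all Co mice, and the difference was 0.25 ± 0.13 (SE, n = 4 per group, limma adjusted p = 0.275). It was 0.17 without Pg1 and 0.03 in the authors' log2 values. The upstream probe of the same accession read 5.51, 5.17, 4.90 and 5.01 in Co and 5.42, 5.0, 4.25 and 4.40 in Pg. It was below background on Pg3, and its difference had the opposite sign, -0.38 ± 0.27 (SE, limma adjusted p = 0.437). Here Pg3 and Pg4 were below all Co mice, while Pg1 and Pg2 were among them. The difference was -0.60 without Pg1, -0.21 without Pg3 and -0.24 to -0.13 under other background corrections and scalings or none. On both probes the mice with number 1, whose arrays share slide column 1, were the highest of their group. The remote probe was at 9.69 to 9.85 in Co and at 9.76 to 10.04 in Pg, with a difference of 0.08 ± 0.08 (SE, limma adjusted p = 0.542). Its highest value was that of Pg2, without which the difference was 0.02, and it was 0.06 with scaling to the 75th percentile. With the group means removed, the upstream and downstream probes ran in parallel over the 8 arrays (Pearson r = 0.722, among the highest of 66 pairs of tested member probes), and the remote probe had an r of 0.345 with the upstream and 0.211 with the downstream one. These are descriptions, as the arrays share a slide and the normalization. The difference between the probes of NM_021297 was not tested, and neither probe alone passed the test.

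*Tlr5*, the flagellin receptor, was at the limit of detection. Its probe A_66_P111367 (chr1:184905770-184905829, plus strand) read 4.55, 4.38, 4.06 and 4.77 in Co and 4.04, 3.77, 4.20 and 4.78 in Pg. It stood above background on all Co arrays and, among the Pg arrays, on Pg4 alone, which was also the highest of all 8. The difference was -0.24 ± 0.23 (SE, n = 4 per group, limma adjusted p = 0.568). It was -0.44 without Pg4, -0.37 without Co3, -0.13 without Co4 and -0.10 without Pg2, and -0.11 to -0.03 with other background corrections, scaling, no normalization or the authors' log2 values. The other probe, A_51_P461123, was measured on no array.

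Of the endosomal receptors, *Tlr7*, which binds single-stranded RNA, held the smallest p of all members. Its brightest probe, A_55_P2050932 (chrX:163742863-163742922, minus strand), was at 8.51, 8.67, 8.53 and 8.72 in Co and at 8.30, 8.63, 7.96 and 8.28 in Pg. Pg1, Pg3 and Pg4 lay below all Co mice, and Pg2 lay among them. The difference was -0.32 ± 0.14 (SE, n = 4 per group), with an unadjusted p of 0.0487 and an adjusted p of 0.216 in limma. Without Pg2 it was -0.43 with an adjusted p of 0.124, and without Pg3 it was -0.20 with an adjusted p of 0.305. The second probe of the same accession, A_55_P2129047, starts 283 bases away and gave no such pattern. It read 5.03, 4.78, 5.53 and 5.65 in Co and 4.71, 5.71, 4.23 and 6.78 in Pg, so that Pg4 was the highest and Pg3 the lowest of all 8 arrays. It was below background on Pg1 and Pg3, and its difference was 0.11 ± 0.53 (SE, limma adjusted p = 0.920). That difference became -0.37 without Pg4, -0.05 without Co2 and -0.01 without Pg2, and -0.07 in the authors' log2 values, none past the test. The probe of the other *Tlr7* accession, NM_001290758, was measured on no array.

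*Tlr8*, a neighbor of *Tlr7* on the X chromosome that also binds RNA, had 4 probes, of which 1 was tested. A_66_P131283 (chrX:163679328-163679387, minus strand) was at 5.05, 4.89, 4.85 and 5.54 in Co and at 4.73, 5.15, 4.35 and 4.89 in Pg. Co4 was the highest and Pg3 the lowest, the groups overlapped, and the probe was below background on Pg1 and Pg3. The difference was -0.31 ± 0.21 (SE, n = 4 per group, limma adjusted p = 0.417), and it was -0.15 without Co4, -0.16 without Pg3, and -0.17 to -0.12 with other background corrections, scaling, no normalization or the authors' log2 values. Of the other 3 probes, A_55_P1996271 stood above background on Pg2 alone, at 4.63, and those named A_55_P2718309 and A_51_P176893 on no array.

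*Tlr9*, the receptor for unmethylated CpG DNA, had the smallest SD of the tested member probes in either group, 0.035 in Co and 0.055 in Pg. Its values were 10.97, 10.90, 10.93 and 10.97 in Co and 10.93, 10.97, 11.06 and 11.01 in Pg, and Pg3 and Pg4 lay just above all Co mice. The difference was 0.05 ± 0.05 (SE, n = 4 per group, limma adjusted p = 0.613). The interval of the fold change was 0.951 to 1.13. The difference was 0.03 without Pg3, and 0.02 with normexp and with scaling to the 75th percentile. Its sign turned, at -0.01 in the authors' log2 values and at -0.0015 when the median signal was taken as scanned.

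Both adaptors were measured on all arrays. *Myd88*, which serves every Toll-like receptor but Tlr3, was at 9.45, 9.42, 9.83 and 9.73 in Co and at 9.78, 9.78, 9.59 and 9.72 in Pg. All Pg values lay inside the range of the Co mice, in which Co1 and Co2 were low. The difference was 0.11 ± 0.11 (SE, n = 4 per group, limma adjusted p = 0.588) and the interval of the fold change 0.906 to 1.28. The difference was 0.05 without Co1 or Co2, 0.18 without Co3 and in the authors' log2 values, and 0.17 with the median signal. *Ticam1*, the adaptor of Tlr3 and of Tlr4 in endosomes, was at 8.39, 8.33, 8.53 and 8.35 in Co and at 8.32, 8.43, 8.05 and 8.09 in Pg. Pg3 and Pg4 lay below all Co mice, Pg1 only just below them and Pg2 among them. The difference was -0.18 ± 0.10 (SE, n = 4 per group, limma adjusted p = 0.331) and the interval of the fold change 0.755 to 1.04. The difference was -0.11 without normalization between arrays.

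**Figure D3:**
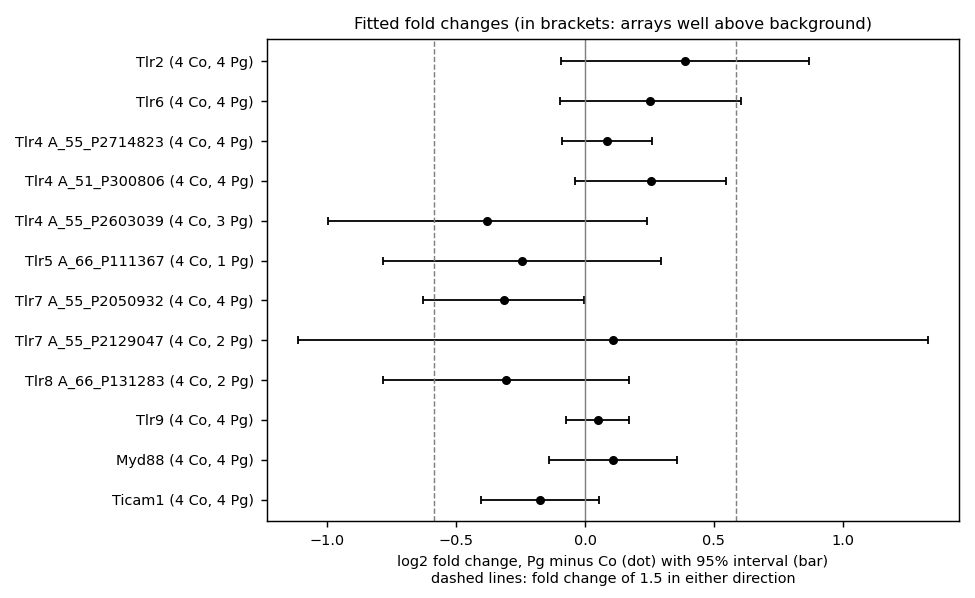
Log2 fold change of Pg over Co (dots) with 95% intervals (bars) for the 12 tested probes, with dashed lines at a fold change of 1.5 in either direction and, in brackets, the arrays of each group that stood above background. The bar of Tlr7 A_55_P2050932 alone lies on 1 side of 0, with its upper end at -0.0022, and the widest bar is that of the second Tlr7 probe, from -1.11 to 1.33.

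For 3 members the genes with the most similar pattern over the 8 arrays were looked up after the group means had been removed, among 19640 genes above background on all arrays. They are a description, and the points share slide, normalization and tissue. For *Tlr2* they were *Tppp* (Pearson r = 0.986), *Zbtb12* (0.976) and *AI661453* (0.973). For the remote *Tlr4* probe, the brightest of that name, they were ENSMUST00000120851 (0.990), *Fhdc1* (0.986) and *Gm35287* (0.985). For *Myd88* they were *Pus7l* (0.987), *Eif3h* (0.985) and *Fut11* (0.980). No other member is among them.

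The other genes of the pathway were taken from 7 lists with 59 genes, of which 50 had a tested probe, and the brightest tested probe stood for a gene. Of the 50, 6 rose with an adjusted p under 0.1 and 0 fell, whereas over all 22323 genes 6.23% passed by that rule, 2.05% as higher and 4.18% as lower. Only *Tnfaip3* and *Icam1* also passed the fold change of 1.5, which 1.18% of all genes passed with that adjusted p. Co and Pg were apart for 12 of the 50, against 14.3% of all genes. The median difference was 0.10, against -0.01 over all genes. The count of 6 was 0 without Co2, Co3 or any normalization between arrays, 1 without Co1, Pg1, Pg2 or Pg4, 2 without Co4 and 5 without Pg3. In 16 of the 25 genes with several tested probes, another probe had the opposite sign. Over all 91 tested probes of the 50 genes, 7 were higher and 1 lower with an adjusted p under 0.1. Over all probes 616 (1.82%) rose and 2028 (6%) fell with an adjusted p under 0.1, against 20 and 9 without normalization between arrays.

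**Figure D4:**
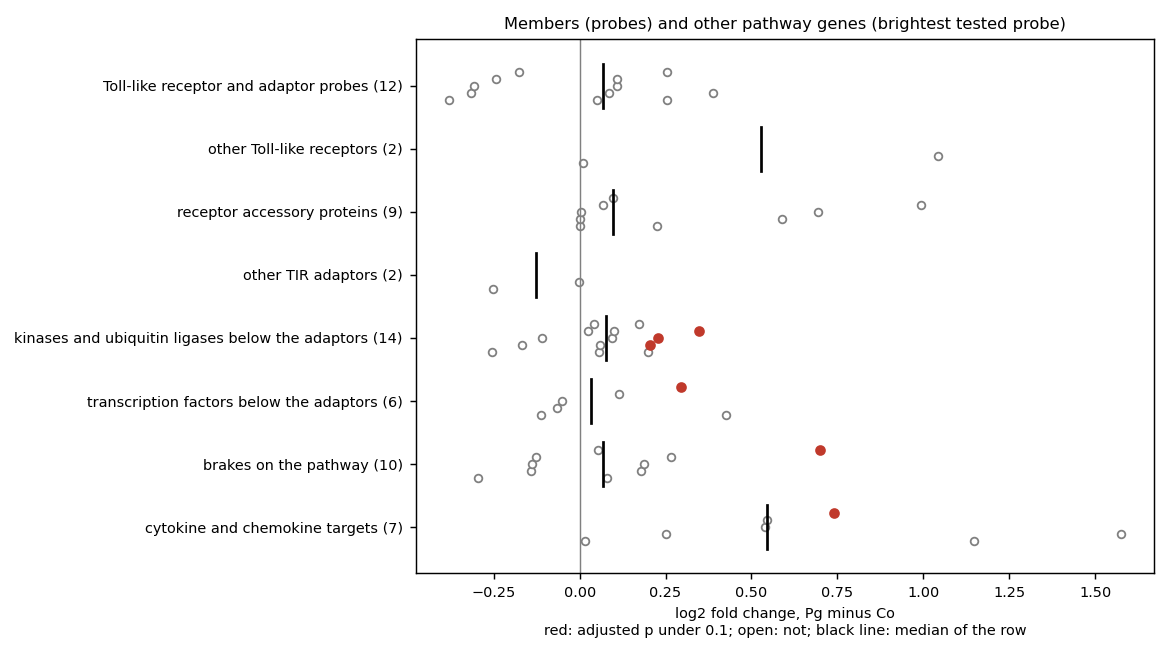
Log2 fold change of Pg over Co for the 12 tested member probes (top row) and for the other genes of each pathway list (1 dot per gene), with the number of dots in brackets, red dots for an adjusted p under 0.1 and a black line at the median of each row. The red dots are Traf3, Map3k7 and Chuk among kinases and ubiquitin ligases, Rela, Tnfaip3 and Icam1, and the top row has none.

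At the level of the receptors, 2 of 4 other Toll-like receptors and all 9 accessory proteins were tested, and by their brightest probes 0 of these 11 had an adjusted p under 0.1 or an unadjusted p under 0.05. *Tlr3*, the receptor for double-stranded RNA, was at 4.33, 4.22, 4.11 and 3.98 in Co and at 6.17, 7.03, 3.24 and 4.37 in Pg. Pg1 and Pg2 were far above the rest and Pg3 was the lowest of all, and the difference was 1.04 ± 0.75 (SE, n = 4 per group, limma adjusted p = 0.448). This *Tlr3* probe was above background on all Co arrays but on only 3 of the Pg arrays. *Cd14*, the co-receptor that passes lipopolysaccharide to Tlr4, was at 7.52, 7.23, 7.75 and 7.70 in Co and at 7.71, 8.07, 7.10 and 11.3 in Pg. Pg4 alone stood far above, and the difference was 0.99 ± 0.83 (SE, limma adjusted p = 0.512), while the second probe gave 0.55 ± 0.21 (SE, limma unadjusted p = 0.0329, adjusted p = 0.179). *Cd180*, a receptor-like protein of B cells and macrophages, differed by 0.69 ± 0.48 (SE, limma adjusted p = 0.431), with Pg3 at 8.32 and the other Pg mice at 5.92 to 6.59, and its second probe gave 1.74 ± 1.21 (SE, limma adjusted p = 0.433). *Tlr13*, which binds bacterial ribosomal RNA, differed by 0.01 ± 0.12 (SE, limma adjusted p = 0.972).

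Among the other TIR adaptors, 2 of 3 were tested. *Tirap*, which brings Myd88 to Tlr2 and Tlr4, differed by -0.0027 ± 0.085 (SE, limma adjusted p = 0.988). *Sarm1*, an adaptor that dampens signaling, was above background on all Co arrays and on no Pg array. Its means were 4.42 in Co and 4.16 in Pg (limma adjusted p = 0.328), and no bound on the fold change follows, as the lowest level that can be told from background on the Pg arrays was 4.48 on average.

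Below the adaptors, 3 of 14 tested kinases and ubiquitin ligases rose by their brightest probe and 0 fell, where 2.05% of all genes rose and 4.18% fell by that rule. Dimmer probes of a pair of other genes passed the test as well and are named for that after their values were seen. That of *Irak2*, a kinase bound by Myd88 complexes, rose by 0.81 ± 0.18 (SE, limma adjusted p = 0.0657) while its brightest probe gave -0.17 (limma adjusted p = 0.160). That of *Ikbkb*, a catalytic subunit of the IκB kinase, fell by 0.51 ± 0.12 (SE, limma adjusted p = 0.0683) while its brightest probe gave 0.10 (limma adjusted p = 0.490). *Traf3*, a ubiquitin ligase on the way to interferon regulatory factors, was at 11.97, 11.95, 12.20 and 12.18 in Co and at 12.41, 12.44, 12.41 and 12.45 in Pg. All Pg mice lay above all Co mice, and the difference was 0.35 ± 0.07 (SE, n = 4 per group, limma adjusted p = 0.0621). *Map3k7*, the kinase TAK1, rose by 0.23 ± 0.05 (SE, limma adjusted p = 0.0699), from 11.8 to 11.9 in Co to 12.0 to 12.1 in Pg. *Chuk*, a subunit of the IκB kinase, rose by 0.20 ± 0.05 (SE, limma adjusted p = 0.0904), again without overlap of the groups. Dimmer probes of both genes gave other values, -0.27 and 0.02 for *Map3k7* and -0.09 for *Chuk*, none with an adjusted p under 0.1, and the second *Traf3* probe gave 0.14 (limma adjusted p = 0.228). The rise of *Traf3* passed the test in 8 of 16 other fits, that of *Map3k7* in 4 of 17 and that of *Chuk* in 4 of 17. *Ikbkg*, the regulatory subunit of that kinase, differed by -0.25 ± 0.09 (SE, limma adjusted p = 0.138) on its brightest probe and by 0.03 and -0.07 on the others (limma adjusted p = 0.878 and 0.870).

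Of the 6 transcription factors, 3 were higher and 3 lower in Pg, and *Rela*, the p65 subunit of NF-κB, was the one to rise with an adjusted p under 0.1. It was at 12.50, 12.36, 12.39 and 12.43 in Co and at 12.78, 12.86, 12.53 and 12.70 in Pg, with all Pg mice above all Co mice. The difference was 0.29 ± 0.08 (SE, n = 4 per group, limma adjusted p = 0.0930), and its dimmer probe gave -0.20 (limma adjusted p = 0.431). The rise passed the test in 4 of 16 other fits. *Irf7*, a factor for type I interferon, differed by 0.43 ± 0.23 (SE, limma adjusted p = 0.304), with Pg2 at 11.1 and all others at 9.91 to 10.4, and its second probe gave -0.24 (limma adjusted p = 0.666).

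Of the 10 brakes on the pathway, *Tnfaip3*, the NF-κB target A20 that edits ubiquitin chains, was the only one to rise with an adjusted p under 0.1, where 2.05% of all genes did. By their brightest probes 6 of the 10 were higher and 4 lower in Pg. It was at 6.83, 6.76, 7.03 and 7.28 in Co and at 7.86, 7.62, 7.66 and 7.56 in Pg. All Pg mice lay above all Co mice, and the difference was 0.70 ± 0.13 (SE, n = 4 per group, limma adjusted p = 0.0509). It kept an adjusted p under 0.1 in 13 of 17 other fits and lost it without Co2 or Co3 (0.113 in each), without normalization between arrays (0.139) and in the fit by replicate number. *Zc3h12a*, which degrades cytokine mRNA, differed by -0.30 ± 0.18 (SE, limma adjusted p = 0.371), and by -0.03 on its second probe (limma adjusted p = 0.950).

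Of the 12 cytokine and chemokine targets, 7 had a tested probe, all of them higher in Pg, where 42.3% of all tested probes were higher. The smallest of the 7 differences was 0.02 (limma adjusted p = 0.977). *Icam1* was the one to rise with an adjusted p under 0.1, where 2.05% of all genes did. *Icam1*, the adhesion molecule that holds leukocytes on endothelium, was at 8.21, 8.22, 8.68 and 8.40 in Co and at 9.44, 9.19, 8.65 and 9.20 in Pg. Pg1, Pg2 and Pg4 lay above all Co mice, and Pg3 lay just below Co3. The difference was 0.74 ± 0.18 (SE, n = 4 per group, limma adjusted p = 0.0755), and it passed the test in 7 of 17 other fits, of those with an array left out in the fit without Pg3 alone. Its second probe gave 0.41 ± 0.48 (SE, limma adjusted p = 0.642). *Cxcl1*, a neutrophil chemokine, was at 4.48, 5.15, 5.50 and 4.87 in Co and at 7.96, 6.76, 5.66 and 5.91 in Pg. Its groups did not overlap, and the difference of 1.57 ± 0.49 (SE) had an adjusted p of 0.122 in limma. *Il12b*, a subunit of interleukins made by myeloid cells, differed by 1.15 ± 0.53 (SE, limma adjusted p = 0.244) and was above background on 2 arrays of each group.

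**Figure D5:**
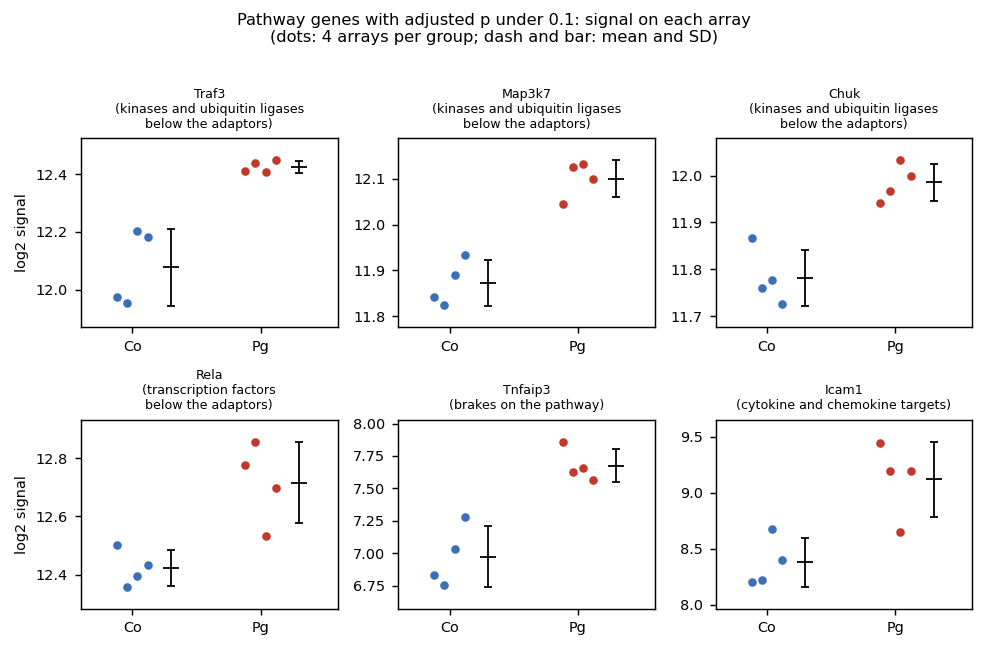
Log2 signal on each array, Co in blue and Pg in red, of the 6 pathway genes with an adjusted p under 0.1, with the mean and SD of 4 arrays beside the dots. The groups are apart for Traf3, Map3k7, Chuk, Rela and Tnfaip3, and for Icam1 Pg3, at 8.65, lies below Co3, at 8.68.

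Markers of other cells are given beside these genes. Of 7 neutrophil markers 5 were tested, and 5 were higher in Pg, where 42.3% of all tested probes were. Of these, 0 had an adjusted p under 0.1 (6.23% of all genes) and 3 an unadjusted p under 0.05. *S100a8* was at 8.59, 8.32, 5.18 and 6.76 in Pg1 to Pg4 and at 4.56 to 5.33 in Co. *S100a8* and *S100a9* differed by 2.16 and 2.04, and *Csf3r*, *Mmp8* and *Ly6g* by 0.24, 0.16 and 0.09. *Mmp8* was above background on 4 Co arrays and 1 Pg array. The mean level of the tested neutrophil markers was 8.0 to 8.24 in Co and 8.09 to 9.69 in Pg (two-sided exact permutation test, p = 0.0571, adjusted p = 0.171). *Retnlg* and *Cxcr2*, further neutrophil markers, had no tested probe. The order of the Pg mice for *S100a8* is that of *Cxcl1* in so far as Pg1 and Pg2 were high and Pg3 low, and Pg1 and Pg2 were also the mice with a high *Tlr3*. Of 4 B cell markers 3 were tested, and 2 were higher and 1 lower in Pg. *Cd79b* rose by 1.69 ± 0.44 (SE, limma adjusted p = 0.0867), to 8.47 in Pg3, which was also the mouse with a high *Cd180*. Pg1, with the next highest *Cd79b*, 7.89, had the lowest *Cd180* of the Pg mice, 5.92. The mean level of the tested B cell markers was 5.17 to 5.54 in Co and 5.63 to 6.47 in Pg (two-sided exact permutation test, p = 0.0286, adjusted p = 0.114). Of 4 endothelial markers 2 were higher and 2 lower in Pg. *Kdr* rose by 0.57 ± 0.11 (SE, limma adjusted p = 0.0573), and *Pecam1* differed by -0.20 ± 0.07 (SE, limma adjusted p = 0.151) with all Pg mice below all Co mice. *Cdh5* and *Tek* differed by 0.13 and -0.14 (limma adjusted p = 0.539 and 0.441), and the list mean was 10.3 to 10.6 in Co and 10.5 to 10.6 in Pg. The part of these cells in the differences of the pathway genes was not tested.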

How the data were processed

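The authors labeled RNA of each mouse with Cy3, scanned the arrays and extracted spots with Agilent Feature Extraction 11.0.1.1. The deposited intensity of each spot is background-subtracted and detrended, not normalized between arrays, and flags for signal above background stand beside it. A further deposited file gives the authors' normalized log2 values for 28067 entries and served only as an alternative. Its columns of fold changes, p-values and scores from their own comparison were not used.

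Spots that are not controls (59305) were read in R 4.3.3 with the data.table package, version 1.17.8. Spots marked as population outliers (90 to 150 per array) were left out, and spots of a probe were averaged. Intensities were quantile-normalized, values under 1 were set to 1, and log2 was taken. Probes had to be well above background on 4 or more arrays (33819), and these were tested two-sided in limma 3.58.1 (lmFit, then eBayes), as in the methods of the study, and p-values were adjusted by Benjamini-Hochberg over all of them. Single values per array were compared by an exact permutation test over 70 splits. The script was tested on simulated data. Arrays come from separate mice, by the labels numbered samples of each group, and their number limits the precision. Gene names are those of the array, and 14 of the 19 member probes matched the same symbol in RefSeq by accession. All probes of a member were kept apart. Of the pathway lists, genes with an adjusted p under 0.1 and otherwise the 2 largest differences of each list are named, and marker genes with their values were chosen after these were seen. The members and lists were chosen with earlier results of these data known.

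Alternatives were limma's normexp on the mean signal (offset 50), the scanned median signal, the 75th percentile of each array as its scale, arrays left without normalization, no filter on dim probes or a filter on all 8 arrays, a floor of 16, the authors' log2 values, an adjusted p under 0.05, the replicate number as a block and each array left out.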

Additional observations from a re-analysis of the deposited data

Results flagged for a closer look

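In 5 of 96 groups of 4 arrays examined, the extreme array lay farther from its group than the 95% critical value of Dixon's test, which chance passes in about 1 of 20 groups. All of them are of member probes that were too seldom above background to be tested. Probe A_66_P137861 of *Tlr1* read 4.07 on Co4 against 2.06 to 2.30 on the other Co arrays, and 3.86 on Pg4 against 2.13 to 2.16 on the other Pg arrays. Of these it was well above background on Co4 only. Probe A_51_P495581 of *Tlr1* read 3.05 on Pg4 against 2.19 to 2.26, and probe A_55_P2129046 of *Tlr7* read 2.88 on Pg4 against 2.14 to 2.20. Probe A_51_P176893 of *Tlr8* read 3.45 on Co2 against 2.09 to 2.17.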

How the results depend on the processing

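No member probe was called in any of 18 alternatives, and none had an adjusted p under 0.1 in any of 17. Both counts were 0 with each array left out. The difference of *Tlr9* turned to -0.0015 with the median signal and to -0.0057 with the authors' log2 values, which hold 10 of the 19 member probes. That of *Tlr7* A_55_P2129047 turned to -0.073 with the authors' values, and to -0.049, -0.0067 and -0.37 without Co2, Pg2 and Pg4, with 0.48 as the highest value when an array was left out (Pg3). All other tested member probes kept their sign in every alternative that could fit them.

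The 6 pathway genes with an adjusted p under 0.1 became 3 with scaling to the 75th percentile and without a filter, 2 with the authors' values, 0 without normalization, and 0 to 5 with an array left out (0 without Co2 or Co3). With normexp 2 fell beside 6 that rose, and 7 rose among probes above background on all 8 arrays. The 546 probes called became 94 with normexp (66 higher and 28 lower against 106 and 440), 108 with the median signal (75 and 33), 283 with scaling (137 and 146), 27 without normalization (20 and 7), 318 above background on all 8 arrays, 106 with the authors' values (60 and 46), and 2 (without Co3) to 692 (without Pg3) with an array left out. The 2644 with an adjusted p under 0.1 became 1546 with scaling, 29 without normalization, 1269 without a filter, 1715 with the authors' values, 3452 with normexp, 3065 with the median signal, 3009 above background on all 8 arrays, 2703 with a floor of 16, and 2 to 2414 with an array left out. The causes were not tested.

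The replicate number as a block, here the slide column too, left 0 member probes, 0 pathway genes, 0 probes called and 0 with an adjusted p under 0.1, with 3 member probes at an unadjusted p under 0.05. Same-numbered Co and Pg arrays correlated by 0.06, -0.03, -0.07 and 0.18 after removal of group means. Co and Pg arrays with different numbers correlated by -0.15 to 0.13. These values cannot decide whether the numbers pair the mice, as number and slide column are the same here. Under the block the adjusted p of *Tnfaip3* was 0.127. The array signal gives no level for the 7 of 19 member probes that were not tested, except where single arrays rose above background.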
